A study of Rattus norvegicus with 9 samples.

Results

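The 5 genes described here were grouped as genes of microglia and macrophages, the phagocytes of the brain, in rat hypothalamus after pituitary stalk injury. They were chosen by Ensembl gene ID from the deposited count table: Lgals3 (ENSRNOG00000010645), Spp1 (ENSRNOG00000043451), Cd68 (ENSRNOG00000037563), Aif1 (ENSRNOG00000000853) and Apoe (ENSRNOG00000018454). They are 5 of the 34784 rows of the table, and all 5 were among the 17345 genes that passed the filter on low counts. The symbols are those given with the IDs when the genes were chosen. Neither the deposited table nor the reference tables used here pair IDs with symbols.

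The tissue held the supraoptic and paraventricular nuclei of S-D rats, whose magnocellular neurons send vasopressin and oxytocin to the posterior pituitary, and was profiled by bulk RNA sequencing. The 3 groups had 3 libraries each: Control, 1 day after PEL surgery and 7 days after PEL surgery. PEL stands for a pituitary stalk electrical lesion in the study as published; the labels use the abbreviation alone, and they state neither the treatment of the Control rats nor age or sex, and name no genetic change. The series asks how hypothalamic injury alters expression in central diabetes insipidus, and its title joins Lgals3 to the transcription factors Atf3 and c-Jun. It is not stated that each library came from another rat, so the spread that the p-values rest on may be technical.

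Microglia are the resident macrophages of nervous tissue, and after axon injury they and incoming blood-borne macrophages take up debris. Aif1 encodes Iba1, a calcium-binding protein of microglia and macrophages, and Cd68 encodes a lysosomal membrane glycoprotein of phagocytes. Lgals3 encodes galectin-3, a galactose-binding lectin made by activated macrophages. Spp1 encodes osteopontin, a secreted integrin ligand, and Apoe encodes apolipoprotein E, a lipid carrier that astrocytes also make in large amounts. In bulk tissue, more cells of a type and more RNA per cell cannot be told apart. Marker genes of other cell types, and of the labelled tissue itself, could not be found without a table of symbols, so their part in the results was not tested.

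The total count of a library lay between 18948576 and 21012998 in Control, between 13338433 and 17294334 at day 1 and between 17014260 and 18685921 at day 7. Levels are given as CPM, the count of a gene relative to the TMM-scaled total of its library. A gene is called changed at a Benjamini-Hochberg adjusted p below 0.05 in edgeR's quasi-likelihood test, fitted and adjusted over all 17345 genes. Since CPM is not corrected for transcript length, levels are compared between libraries of 1 gene and not between genes.

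Lgals3 and Spp1 had risen 12.4-fold and 16.1-fold by day 1. From day 1 to day 7 Spp1 fell 5.53-fold, the difference in Lgals3 was not called, and Aif1 and Apoe rose 1.86-fold and 1.75-fold. Cd68 was called in none of the 3 comparisons. The 5 genes were chosen with earlier results of these data known. The shares of all genes given here and below are therefore background, and do not test whether the 5 stand out. Of the 5 genes, 2 were called at day 1 against Control, both higher, beside 11.4% of all tested genes called higher and 9.01% called lower (20.4% in either direction). With library totals as the only scaling, 2471 of all tested genes were higher and 856 lower at day 1, in place of 1977 and 1563, and the same number of the 5 genes, 2, was called. At day 7 against Control 2 of the 5, Lgals3 and Apoe, were called, both higher. Beside them 0.842% of all genes were called higher and 0.179% lower (1.02% in either direction). In edgeR's test 4 of the 5 had an unadjusted p below 0.05, of which Spp1 had the largest (0.0154). A smaller p than that of Spp1 was found for 6.08% of all tested genes, and a smaller p than that of Cd68 (0.0539) for 13%. At day 7 against day 1, 2 were called higher and 1 lower, beside 13.4% and 15.8% of all genes (29.2% in either direction). With library totals as the only scaling these 2 directions held 1456 and 3294 of all genes, in place of 2320 and 2749. The median log2 fold change of the 5 genes was -0.02 at day 1 against Control, 1.06 at day 7 against Control and 0.81 at day 7 against day 1; over all tested genes it was -0.02, -0.01 and 0.03.

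**Figure D1:**
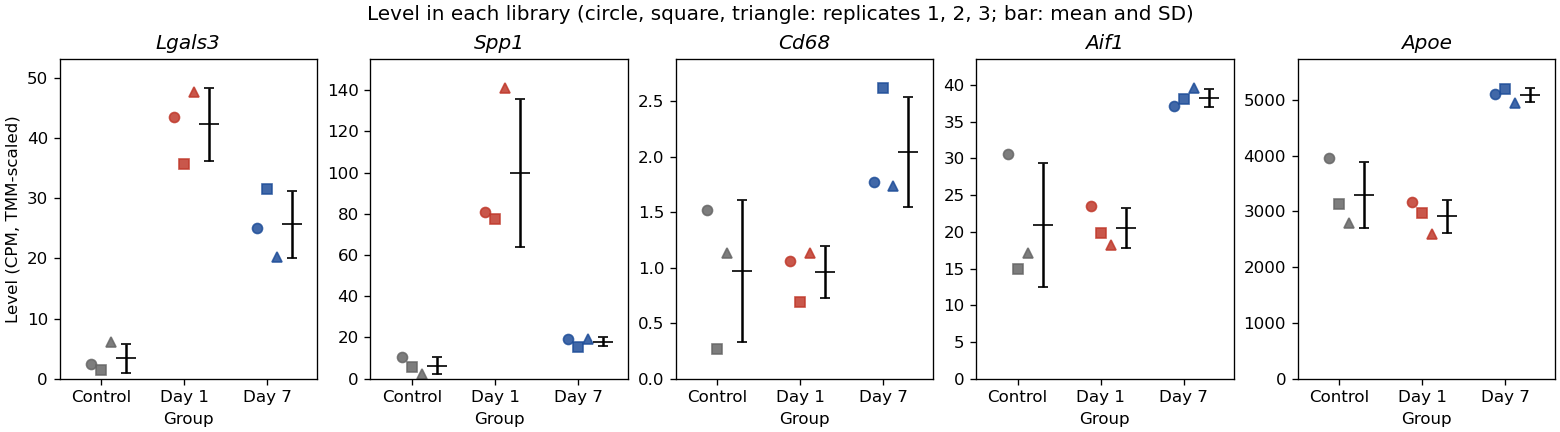
Level of each of the 5 genes in CPM (vertical axes, linear and starting at 0) in the 3 libraries of Control, day 1 and day 7; symbols stand for replicate numbers and bars for the mean and SD. Lgals3 and Spp1 were highest at day 1, and Cd68, Aif1 and Apoe were highest at day 7.

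The galactose-binding lectin Lgals3 had 48, 27 and 130 counts in Control replicates 1, 2 and 3, which are 2.52, 1.45 and 6.14 CPM. At day 1 it stood at 43.5, 35.7 and 47.6 CPM. At day 7 it stood at 25.1, 31.5 and 20.3 CPM. Every lesion library lay above every Control library, and every day 1 library lay above every day 7 library. The mean went from 3.37 ± 2.46 CPM in Control to 42.3 ± 6.05 CPM at day 1 (SD, n = 3 each), a 12.4-fold rise with a 95% interval of 5.92 to 26.0 (log2 fold change 3.63, SE 0.459, edgeR adjusted p = 0.00474). A larger log2 fold change at day 1 was found for 0.161% of the tested genes. The call was made in all 19 alternatives listed with the methods, at adjusted p up to 0.0201, and without Control replicate 3, the Control library with the most Lgals3, the rise was 21.1-fold.

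At day 7 Lgals3 was at 25.6 ± 5.62 CPM (SD, n = 3), 7.52-fold as high as in Control, with an interval of 3.63 to 15.6 (log2 fold change 2.91, SE 0.452, edgeR adjusted p = 0.0365). Leaving out Control replicate 1 or 2, any day 1 library or any day 7 library ended the call, with log2 fold changes of 2.55 to 3.05 and edgeR adjusted p of 0.0597 to 0.127 in those 8 fits. Without Control replicate 3 the call was kept and the rise was 12.9-fold (edgeR adjusted p = 0.00480). The call was also lost in a model of Control and day 7 only (adjusted p = 0.117) and with no filter on low counts (adjusted p = 0.0709). The direction was upward in all 19 alternatives. From day 1 to day 7 Lgals3 differed by a log2 fold change of -0.72 (95% interval -1.65 to 0.21, edgeR adjusted p = 0.220), which was not called, although the 2 groups did not overlap. It was called without Control replicate 3 (-0.71, edgeR adjusted p = 0.0258), by limma-voom (adjusted p = 0.0350) and in a model of day 1 and day 7 only (adjusted p = 0.0116).

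The secreted integrin ligand Spp1 had 10.6, 5.52 and 2.50 CPM in Control replicates 1, 2 and 3. At day 1 it stood at 80.8, 77.2 and 141 CPM. At day 7 it stood at 19.2, 15.3 and 19.5 CPM. The 3 groups did not overlap, with the day 1 libraries far above the others and day 1 replicate 3 the highest of them. The mean went from 6.20 ± 4.09 CPM in Control to 99.7 ± 35.8 CPM at day 1 (SD, n = 3 each), a 16.1-fold rise with an interval of 7.09 to 36.8 (log2 fold change 4.01, SE 0.503, edgeR adjusted p = 0.00511). A larger log2 fold change at day 1 was found for 0.115% of the tested genes. The call was made in all 19 alternatives, and without Control replicate 1 the rise was 25.1-fold (edgeR adjusted p = 0.00473).

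By day 7 Spp1 had fallen 5.53-fold from its day 1 level, to 18.0 ± 2.32 CPM (log2 fold change -2.47, SE 0.460, edgeR adjusted p = 0.00829), a call made in all 19 alternatives. Against Control the day 7 level was 2.92-fold as high, with an interval of 1.32 to 6.47, and was not called (log2 fold change 1.54, edgeR adjusted p = 0.253, and 0.0647 to 0.498 over the 19 alternatives). Without Control replicate 1 this value was 4.54-fold, again not called. The ratio of Lgals3 to Spp1 counts in the same library, set up after the levels were seen, was 0.538, 0.463 and 0.338 at day 1 and 1.31, 2.06 and 1.04 at day 7. These ranges did not overlap, and the ratio was 3.22-fold higher at day 7 than at day 1 (exact two-sided permutation p = 0.1, and no smaller value is possible with 3 libraries a group). In Control the same ratio was 0.240, 0.266 and 2.44. Control replicate 3 had the most Lgals3 and the least Spp1 of the Control libraries, so the Control range of this ratio spanned both lesion groups.

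**Figure D2:**
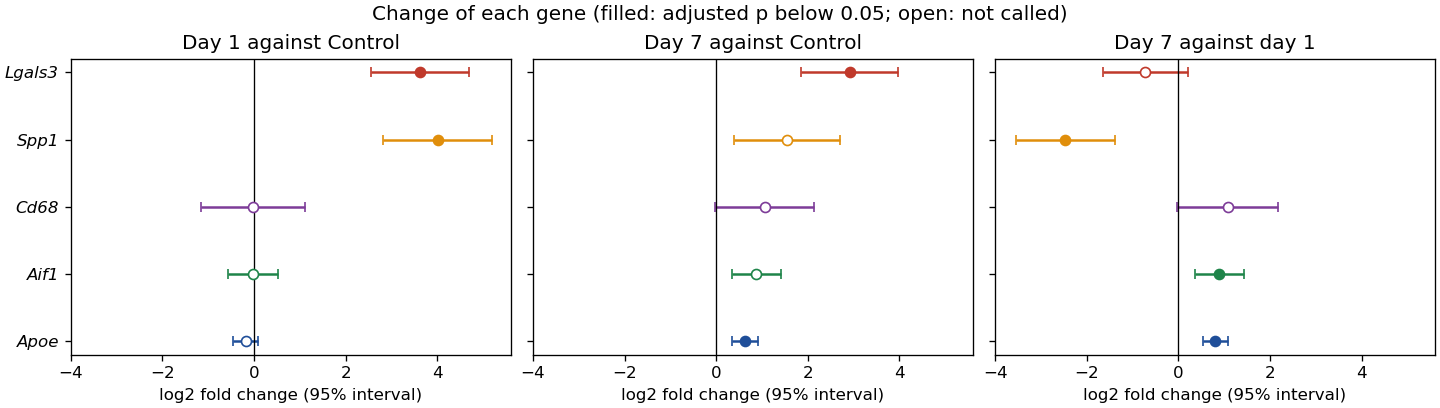
Log2 fold change of each gene with its 95% interval (horizontal axes) for day 1 against Control, day 7 against Control and day 7 against day 1; filled points passed an adjusted p below 0.05. At day 1 the intervals of Lgals3 and Spp1 lay above 0 and those of Cd68, Aif1 and Apoe included 0.

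The microglia and macrophage gene Aif1, which encodes Iba1, had 30.6, 15.0 and 17.1 CPM in Control replicates 1, 2 and 3. At day 1 it stood at 23.6, 19.8 and 18.2 CPM. At day 7 it stood at 37.1, 38.1 and 39.6 CPM. The Control and day 1 libraries overlapped, and every day 7 library lay above both. At day 1 Aif1 lay at a log2 fold change from Control of -0.02 (95% interval -0.56 to 0.51, edgeR adjusted p = 0.962), an interval that covers ratios from 0.679 to 1.43. Without Control replicate 1 this value was 0.36 and was not called (edgeR adjusted p = 0.0741).

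From day 1 to day 7 Aif1 rose 1.86-fold, from 20.5 ± 2.74 to 38.3 ± 1.25 CPM (SD, n = 3 each; log2 fold change 0.90, SE 0.237, edgeR adjusted p = 0.0208). This call was lost without day 1 replicate 2 or 3 and without day 7 replicate 1, 2 or 3, with log2 fold changes of 0.83 to 0.92 and edgeR adjusted p of 0.0517 to 0.0714 in these 5 fits. Against the Control mean of 20.9 ± 8.44 CPM the day 7 level was 1.83-fold as high, with an interval of 1.27 to 2.65, and was not called (log2 fold change 0.87, edgeR adjusted p = 0.155). It was called by DESeq2 (log2 fold change 0.87, adjusted p = 0.0127) and without Control replicate 1, the Control library with the most Aif1 (log2 fold change 1.25, edgeR adjusted p = 0.00152).

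The phagocyte lysosome gene Cd68 was sparsely counted, and whether the annotation that the authors counted with covers the whole gene is not known. It had 29, 5 and 24 counts in Control replicates 1, 2 and 3. At day 1 it had 19, 11 and 16 counts. At day 7 it had 32, 44 and 31 counts. In CPM the mean was 0.973 ± 0.641 in Control, 0.963 ± 0.235 at day 1 and 2.04 ± 0.499 at day 7 (SD, n = 3 each). The lowest day 7 library, at 1.74 CPM, lay above the highest Control library, at 1.52 CPM, and above the day 1 libraries, while Control and day 1 overlapped. The level at day 7 was 2.08-fold that of Control (log2 fold change 1.06, 95% interval -0.02 to 2.14, edgeR adjusted p = 0.414) and 2.11-fold that of day 1 (log2 fold change 1.08, interval -0.02 to 2.18, adjusted p = 0.131). Neither difference was called. The second was called in a model of day 1 and day 7 only (log2 fold change 1.05, edgeR adjusted p = 0.0315) and without Control replicate 2, the library with 5 counts (log2 fold change 1.08, adjusted p = 0.0390). At day 1 the log2 fold change from Control was -0.02, with an interval of -1.16 to 1.11 (edgeR adjusted p = 0.982).

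The lipid carrier Apoe was an abundant transcript, with 0.282 to 0.374% of all counts in Control, 0.274 to 0.328% at day 1 and 0.488 to 0.513% at day 7. Its levels were 3948, 3124 and 2796 CPM in Control replicates 1, 2 and 3. At day 1 they were 3174, 2965 and 2586 CPM. At day 7 they were 5103, 5197 and 4945 CPM. As for Aif1, Control and day 1 overlapped and the day 7 libraries lay above both. From day 1 to day 7 Apoe rose 1.75-fold, from 2908 ± 298 to 5082 ± 127 CPM (SD, n = 3 each; log2 fold change 0.81, SE 0.124, edgeR adjusted p = 0.00184), a call made in all 19 alternatives.

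Against Control, at 3289 ± 593 CPM, Apoe was 1.54-fold higher at day 7, with an interval of 1.28 to 1.87 (log2 fold change 0.63, SE 0.124, edgeR adjusted p = 0.0454). Leaving out any library other than Control replicate 1 ended this call, with log2 fold changes of 0.53 to 0.65 and edgeR adjusted p of 0.0557 to 0.186 in those 8 fits. It was also lost with DESeq2 size factors as scaling (adjusted p = 0.0563) and in a model of Control and day 7 only (adjusted p = 0.117). At day 1 Apoe lay at a log2 fold change from Control of -0.18 (95% interval -0.45 to 0.10, edgeR adjusted p = 0.334), and after cyclic loess normalization, which removes trends with abundance, the value was 0.10, with the sign turned; neither was called.

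**Figure D3:**
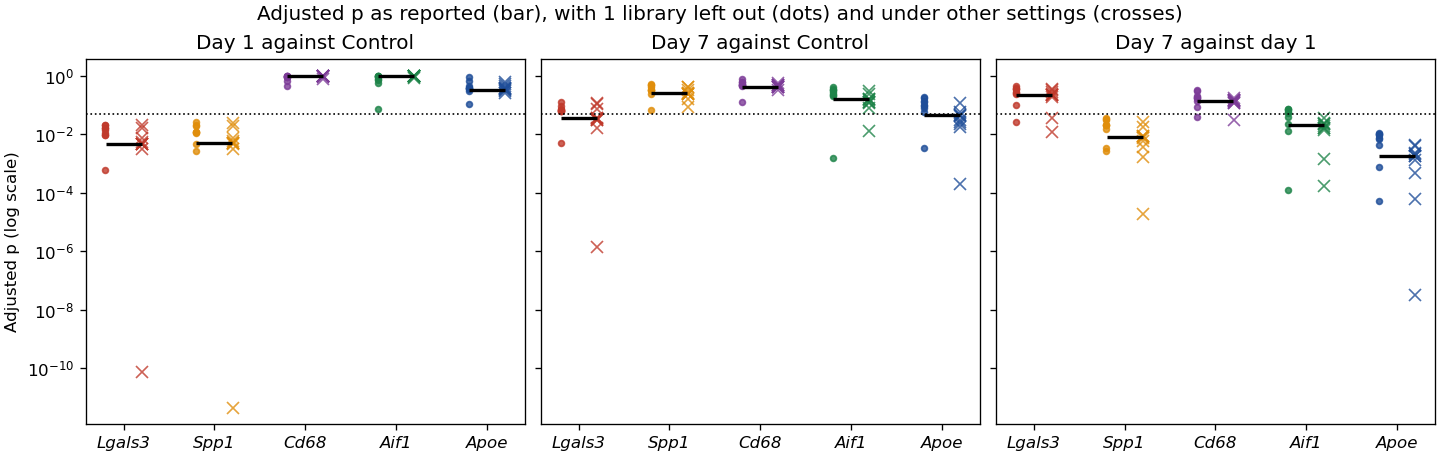
Adjusted p (vertical axis, log scale) of each gene in the 3 comparisons, as reported (bar), with 1 library left out (dots) and under other settings (crosses); the dotted line marks 0.05. At day 1 all values of Lgals3 and Spp1 lay below the line, and at day 7 against Control those of Lgals3 and Apoe lay on both sides of it.

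At day 7 all 5 genes had all 3 libraries above all 3 of Control, beside 16.2% of all tested genes whose groups did not overlap in either direction. At day 1 this held for 2 of the 5, beside 39.7% of all genes without overlap in either direction. Between day 1 and day 7 the groups did not overlap for 5 of the 5, beside 48.8% of all genes. Lgals3 and Spp1 lay lower at day 7, and Cd68, Aif1 and Apoe lay higher. In the fitted log2 fold change at day 7 against Control, the share of tested genes with a larger rise was 0.190% for Lgals3, 0.773% for Spp1, 1.78% for Cd68, 2.93% for Aif1 and 5.39% for Apoe. The 2 comparisons with Control share their Control libraries, so a low Control level raises both. A test of any difference among the 3 groups called Lgals3 (edgeR adjusted p = 0.00419), Spp1 (0.00359), Aif1 (0.0260) and Apoe (0.00326) but not Cd68 (0.164), beside 26.7% of all genes.

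**Figure D4:**
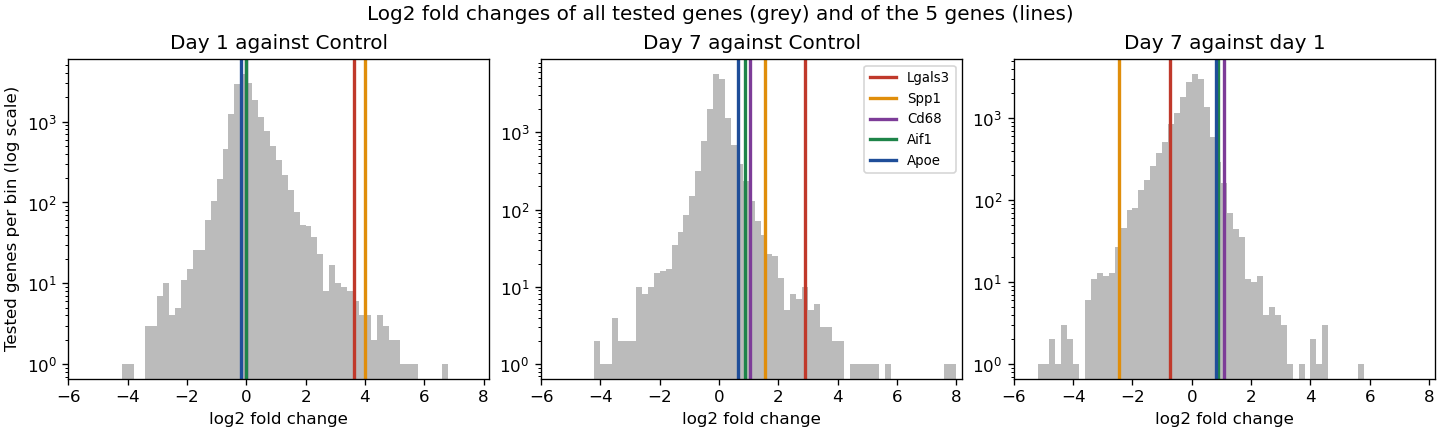
Number of tested genes (vertical axis, log scale) by log2 fold change (horizontal axis) in each comparison, in grey, with the 5 genes as coloured lines. At day 1 Lgals3 and Spp1 lay in the far upper part and the lines of Cd68 and Aif1 coincided near 0, while at day 7 against Control all 5 lay above 0.

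The ratio of 2 genes in the same library does not depend on how libraries are scaled, so each gene was also set against Aif1. The values are ratios of counts, not corrected for transcript length, and only their change between groups is read. The ratio of Lgals3 to Aif1 was 0.0831, 0.0980 and 0.360 in Control, 1.84, 1.80 and 2.61 at day 1, and 0.677, 0.827 and 0.513 at day 7. None of these 3 ranges overlapped. The ratio was 14.4-fold higher at day 1 and 4.61-fold higher at day 7 than in Control. From day 1 to day 7 the ratio was 3.11-fold lower. That fall of the ratio joins the called rise of Aif1 (log2 fold change 0.90) and the uncalled difference in Lgals3 (-0.72). Without Control replicate 3 the log2 differences of this ratio from Control were 4.51 at day 1 and 2.87 at day 7, in place of 3.84 and 2.20. The ratio of Spp1 to Aif1 was 0.347, 0.369 and 0.148 in Control, 3.43, 3.89 and 7.72 at day 1, and 0.518, 0.402 and 0.492 at day 7. It was 17.6-fold higher at day 1 and 1.76-fold higher at day 7 than in Control, again with no overlap. It was 10.0-fold lower at day 7 than at day 1, also with no overlap, and this difference too includes the rise of Aif1. Each of these 6 differences had the smallest exact two-sided permutation p that 3 libraries against 3 can give, 0.1, and 0.2 after adjustment over the 12 ratio tests, so none could pass the threshold.

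The ratio of Apoe to Aif1 varied little among the lesion libraries. It was 135, 149 and 142 at day 1 and 137, 136 and 125 at day 7, although each gene rose between these times. The difference of the mean log2 ratio between day 7 and day 1 was -0.09 (SD 0.0756 at day 1 and 0.0767 at day 7, n = 3 each; exact permutation p = 0.3). In Control the ratio was 129, 208 and 163, a wider range that overlapped both lesion groups. The ratio of Cd68 to Aif1 differed by less than the larger SD of the groups compared in all 3 comparisons (exact permutation p = 0.6 to 0.9), with log2 means of -4.62 ± 0.934 in Control, -4.39 ± 0.403 at day 1 and -4.23 ± 0.340 at day 7 (SD, n = 3 each).

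**Figure D5:**
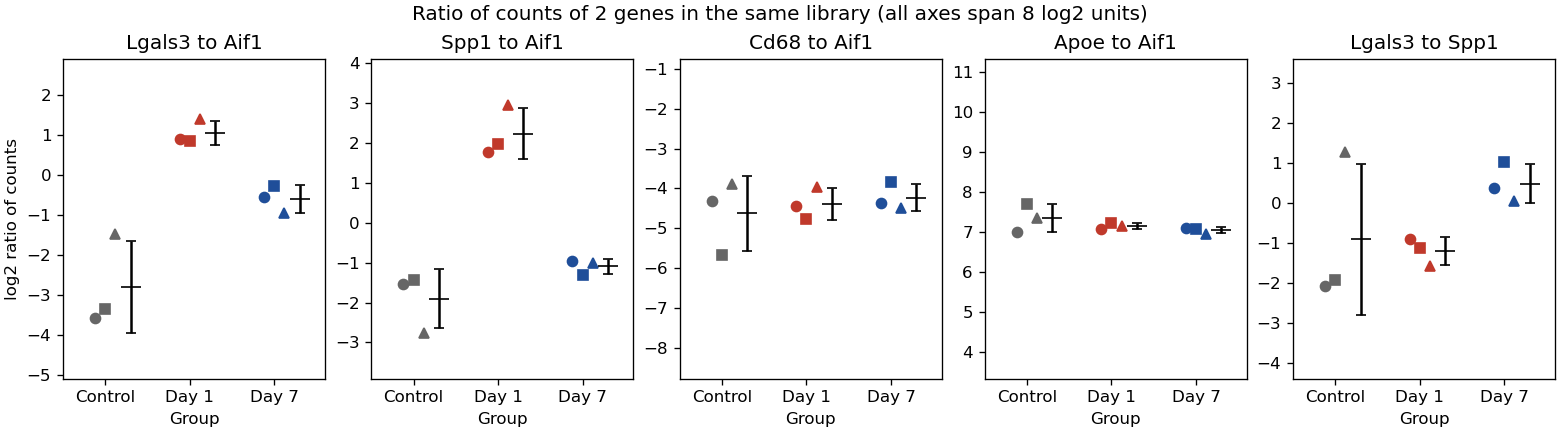
Log2 ratio of the counts of 2 genes in the same library (vertical axes, each spanning 8 log2 units) by group; symbols stand for replicate numbers and bars for the mean and SD. Lgals3 and Spp1 were highest against Aif1 at day 1, the ratio of Apoe to Aif1 varied little among the 6 lesion libraries, and Lgals3 to Spp1 was higher at day 7 than at day 1.

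The coefficient of variation, the SD as a share of the mean, was higher in Control than at day 1 or day 7 for all 5 genes. In SD itself, Lgals3 and Spp1 varied more at day 1 than in Control. The coefficient of variation in Control was 73.0% for Lgals3, 65.9% for Spp1, 65.9% for Cd68, 40.4% for Aif1 and 18.0% for Apoe. In the same order it was 14.3%, 35.9%, 24.4%, 13.3% and 10.3% at day 1, and 21.9%, 12.9%, 24.4%, 3.27% and 2.50% at day 7. Control had the highest coefficient of variation for 49.4% of all tested genes, and the median over all genes was 13.4% in Control, 10.0% at day 1 and 9.60% at day 7. The high libraries were not the same for all genes. Control replicate 1 was the highest Control library for Spp1, Cd68, Aif1 and Apoe, and Control replicate 3 for Lgals3.

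The 2 tested genes whose log2 CPM was most like that of Lgals3 over the 9 libraries, among 12834 genes with a mean of at least 5 CPM in some group, are given by ID because no symbol was matched. ENSRNOG00000010362 (Pearson's r = 0.975) stood at 9.35 ± 1.91 CPM in Control, 32.2 ± 5.87 CPM at day 1 and 25.8 ± 8.19 CPM at day 7 (SD, n = 3 each). ENSRNOG00000010319 (r = 0.974) stood at 18.3 ± 1.61, 37.2 ± 0.545 and 31.1 ± 1.60 CPM. Both genes were chosen for this likeness, and the points of the correlations share libraries and groups, so these values are a description with no test.

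Because the series title names Atf3 and c-Jun, subunits of AP-1 dimers, the promoters of the genes with a RefSeq entry were searched for the AP-1 heptamer TGANTCA and the cyclic AMP response element TGACGTCA. Both motifs read the same on either strand. In the promoter set used here an entry was found for 3 of the 5 genes, namely Spp1, Cd68 and Apoe. Lgals3, which the title also names, and Aif1 had no entry there and were not searched. The 250 bases before the start site are shown for Spp1, which had the largest rise at day 1, and for Cd68, which was not called there, with heptamers in capitals. Both are on the minus strand of the RefSeq rat assembly GRCr8, and the build of the deposited counts is not given in the sources used here.
Spp1, chr14:5619805-5620054: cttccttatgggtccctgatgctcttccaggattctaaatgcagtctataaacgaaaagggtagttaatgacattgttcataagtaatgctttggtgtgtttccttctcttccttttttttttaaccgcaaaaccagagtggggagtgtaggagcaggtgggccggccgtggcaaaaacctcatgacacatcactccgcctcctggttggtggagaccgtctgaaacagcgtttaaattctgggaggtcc
Cd68, chr10:54882442-54882691: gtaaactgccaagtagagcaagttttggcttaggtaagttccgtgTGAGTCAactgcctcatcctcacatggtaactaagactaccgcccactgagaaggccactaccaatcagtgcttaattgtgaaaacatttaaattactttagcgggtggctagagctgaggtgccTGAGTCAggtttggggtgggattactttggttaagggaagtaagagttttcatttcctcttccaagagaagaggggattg
The Cd68 window held the heptamer as TGAGTCA at 2 places, which began 205 and 80 bases before the start site. The Spp1 window and the 3 windows listed for Apoe held no heptamer, and no window of the 3 genes held TGACGTCA. Of the 33469 rat promoter windows of this length, 6.34% held the heptamer and 1.59% held TGACGTCA. A match describes letters only, and the absence of one says nothing of binding outside these windows.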

How the data were processed

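Counts per gene were made by the authors and deposited as 1 table of raw whole-number counts for 9 libraries, with no normalization. Per the submitters' processing notes the tools included HISAT2 (version 2.0.5), featureCounts (1.5.0-p3) and DESeq2 (1.16.1). Not given in the sources used here are genome build, annotation and strand setting, so reads of overlapping genes may not have been told apart. Libraries were grouped by their titles.

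Genes were kept by edgeR's filterByExpr. After TMM scaling, edgeR's quasi-likelihood test (robust fit, two-sided) was run in 1 model of all libraries, with the group as its single term. Standard errors were derived from the F statistic (absolute log2 fold change over its root), and log2 CPM used a prior count of 2. Count ratios used counts plus 0.5. The software was R 4.3.3 with the packages DESeq2 1.42.0, edgeR 4.0.16 and limma 3.58.1. The test was checked on simulated counts that had the same spread in all groups. That check does not cover the higher coefficient of variation in Control. It changed a small set of genes, so it also does not cover the larger shares called at day 1 and between the times.

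The 19 alternatives were DESeq2 size factors, upper-quartile factors, library totals, cyclic loess, no filter, a filter of more than 1 CPM in 3 libraries, DESeq2, limma-voom, replicate number as a block, the 2 compared groups alone, and each of the 9 libraries left out in turn. The genes and lists were chosen with earlier results of these data known. The text names the 5 genes whatever their result, plus the 2 genes most like Lgals3; marker lists of other cell types were not used because the 47357 rows of the rat gene table held 0 Ensembl IDs. No replicate pair agreed within sampling noise (chi-square per degree of freedom at least 6.80).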

Additional observations from a re-analysis of the deposited data

Results flagged for a closer look

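By the direct test of day 7 against day 1, the departure from Control differed between the days for 3 of the 5 genes. Of all tested genes, 29.2% were called in this comparison. The log2 difference was -2.47 for Spp1 (edgeR adjusted p = 0.00829), which was lower at day 7, and it was 0.90 for Aif1 (adjusted p = 0.0208) and 0.81 for Apoe (adjusted p = 0.00184), which were higher at day 7. The Aif1 call was lost in 5 of the 9 fits with 1 library left out. The libraries of the 2 times did not overlap in any of the 5 genes, called or not, beside 48.8% of all tested genes. The difference was not called for Lgals3 (-0.72, adjusted p = 0.220) or Cd68 (1.08, adjusted p = 0.131).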

How the results depend on the processing

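The calls of Lgals3 and Spp1 at day 1 against Control, and of Spp1 and Apoe at day 7 against day 1, were made in all 19 alternatives. The least firm were the calls at day 7 against Control, where 2 of the 5 genes were called. That number was 0 to 2 when 1 library was left out, 0 in a fit of the 2 groups alone, and 1 with DESeq2 size factors, with no filter or with the replicate block; the cause was not tested. Where none was called by edgeR, 4 of the 5 had an unadjusted p below 0.05. The share of all genes below that cutoff in those fits was not counted, so this number has no background to be read against. Lgals3 lost this call with no filter (log2 fold change 2.90, 24996 genes tested), with the block (3.03, adjusted p = 0.105) and in the fit of 2 groups (2.91), and ranged from 2.55 to 3.69 with 1 library left out. Apoe lost it with DESeq2 size factors (0.62) and in the fit of 2 groups (0.63), with a left-out range of 0.53 to 0.78. Aif1 gained it by DESeq2 (0.87) and ranged from 0.68 to 1.25. At day 7 against day 1, 3 of the 5 were called, and 2 to 4 with 1 library left out. A fit of the 2 groups called 5, with Lgals3 (-0.75) and Cd68 (1.05) gained, and limma-voom also called Lgals3 (-0.74). Over all genes the main fit called 5069 of 17345, the left-out fits 3071 to 6070, and the fit of the 2 groups 5890 of 16954. The left-out ranges were -0.90 to -0.58 for Lgals3, 0.86 to 1.21 for Cd68 and 0.83 to 1.02 for Aif1. At day 1 against Control the sign of genes near 0 turned, with none called: Cd68 was 0.0693 with library totals, 0.248 by limma-voom and 0.0367 with the block, Aif1 was 0.0713, 0.0545 and 0.0151 in the same order, and Apoe was 0.10 after cyclic loess. With 1 library left out Cd68 ranged from -0.46 to 0.43 and Aif1 from -0.21 to 0.36. Set against Cd68 in place of Aif1, the log2 ratio of Apoe changed by -0.69 at day 7 against Control and by -0.25 at day 7 against day 1, in place of -0.30 and -0.09.

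No pairing by replicate number was seen over all genes, though a pairing that touches few genes could be missed. Deviations of same-numbered libraries from their group means correlated at -0.15 to 0.04. A library correlated best with its own number in 3 of 18 cases. The replicate block lowered the number of all genes called from 3540 to 2595 at day 1, from 177 to 74 at day 7 and from 5069 to 4319 between the times. Over all genes, the calls at day 7 against Control also moved to 7 without Control replicate 2, 739 without Control replicate 1, 27 to 113 with any other library left out, 28 in a fit of the 2 groups and 523 by DESeq2. The calls at day 1 moved to 1577 without Control replicate 2, 1575 and 1440 without day 1 replicates 1 and 2, and 2066 in a fit of the 2 groups, and those between the times to 3299 without day 1 replicate 2 and 3071 without day 7 replicate 3. Cd68, with 5 to 44 counts a library, had an SE of 0.512 at day 1 against Control, and 0.366 without Control replicate 2.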
